A study of Mus musculus with 48 samples.

Results

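Leucine, isoleucine and valine, the branched-chain amino acids (BCAAs), are broken down in mitochondria by a shared start and 3 separate branches. The transcripts described here are 10 genes of that route (Bcat2, Bckdha, Bckdhb, Dbt, Bckdk, Ppm1k, Ivd, Mccc1, Mccc2 and Hibadh), taken by name from a table of 54532 genes. All 10 were among the 15583 genes that passed the filter on low counts. They had between 13666 reads (Ppm1k) and 120331 reads (Ivd) over all libraries.

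As background, Bcat2 encodes the mitochondrial aminotransferase that removes the amino group from all of the BCAAs, a step for which skeletal muscle is well equipped. The resulting keto acids are committed to oxidation by the branched-chain keto acid dehydrogenase complex (BCKDH). Bckdha and Bckdhb encode the alpha and beta subunits of its E1 component and Dbt its E2 core, while the E3 component Dld is shared with other dehydrogenases. The kinase Bckdk phosphorylates E1 and switches the complex off, and the phosphatase Ppm1k switches it on. Ivd, and then Mccc1 and Mccc2 as subunits of one carboxylase, act in the leucine branch, and Hibadh acts in the valine branch.

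The study gave perfluorooctane sulfonate (PFOS), a persistent fluorinated surfactant, for 21 days by oral gavage, with daily doses of 0, 1 or 10 mg/kg, and sequenced messenger RNA of the gastrocnemius, a calf muscle, from 48 mice. Males and females of the genotypes hCYP2B6-Tg and Cyp2b-null were used, and each combination of sex and genotype is called a stratum. The names stand for mice carrying human CYP2B6, a cytochrome P450 gene, and for mice lacking mouse Cyp2b genes. The 4 strata are thus the females and the males of hCYP2B6-Tg and the females and the males of Cyp2b-null. Each stratum had 4 mice per dose, except for the hCYP2B6-Tg males, with 5 at 0, and the Cyp2b-null males, with 3 at 10 mg/kg/day. The doses 0, 1 and 10 mg/kg/day had 17, 16 and 15 mice. The labels give neither age nor the transgene's promoter nor a background strain, and no mice with intact Cyp2b genes and no transgene are among the samples.

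Library totals ran from 11571142 to 19921061 reads. One label text names liver for the extraction, whereas the tissue field names gastrocnemius. Of 11 fast fibre markers, 10 were abundant and Tnnc2 had at most 30 reads in any library, and 9 of 12 hepatocyte markers were at 0 in at least 39 libraries. Over 1000 reads of Alb, made by liver, or over 40 of Glycam1, of lymph node vessels, marked 6 libraries. They were replicates 1 at 10 and 4 at 0 mg/kg/day of the hCYP2B6-Tg females, replicate 3 at 10 of each of the other strata, and replicate 2 at 1 of the Cyp2b-null males. Replicate 3 at 10 of the Cyp2b-null males was just over the limit, with 41 reads of Glycam1. Leaving the 6 out also makes their groups smaller. The markers that define adipocytes (Adipoq, Cfd, Retn, Cidec, Plin1, Lep and Adrb3) summed to 25.5 to 1484 CPM (read counts divided by the TMM-scaled library size and scaled up by a fixed factor) at 10 mg/kg/day and to 5.09 to 267.2 CPM at 0, and 6 of these 7 rose, all but Lep. Lep was at 0 in 6 libraries and Adrb3 in 4. Of the full list of 19 adipocyte markers 13 rose and 1 fell, with sums of 4105 to 8036 CPM at 10 mg/kg/day and 3748 to 7694 CPM at 0. Fast fibre markers summed to 95630 to 174400 CPM at 10 mg/kg/day and to 134300 to 204200 CPM at 0, and 7 of 11 fell while 2 rose. Slow fibre markers varied widely between libraries. They summed to 199.9 to 6249 CPM at 10 mg/kg/day (median 1131) and to 44.5 to 6613 CPM at 0 (median 600.1). Of the fibroblast markers 5 of 7 fell and 2 rose, with sums of 335.1 to 661.9 CPM at 10 mg/kg/day and 144.5 to 1297 CPM at 0. Of the macrophage markers 3 of 6 rose, with sums of 18.1 to 48.9 CPM at 10 mg/kg/day and 7.55 to 60.5 CPM at 0. Of the lymph node markers 6 of 7 tested rose, with sums of 0.41 to 115.5 CPM at 10 mg/kg/day (median 2.31) and 1.10 to 68.4 CPM at 0 (median 1.84). Without the 6 libraries none of the lymph node markers rose and 1 fell. Mitochondrially encoded genes took 5.53% to 9.78% of the reads at 10 mg/kg/day (mean 7.66%) and 8.65% to 12.99% at 0 (mean 10.6%). Within each stratum the library numbers in the labels were ordered by dose, but across strata they were not, since 1 control Cyp2b-null male had a number above those of all treated Cyp2b-null females, and what the numbers stand for is not given in the sources used here. Over all genes tested 25% rose and 22.5% fell at 10 against 0 mg/kg/day. In bulk muscle, fewer cells of a type and less RNA per cell cannot be told apart.

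The sequence upstream of the 4 genes whose transcripts passed the test at 10 mg/kg/day is shown because it is the stretch nearest to where their transcription begins. Each line gives bases before the RefSeq transcript start (GRCm38, 5′ to 3′ on the strand of the gene), with matches to the GC box GGGCGG on either strand in capitals. For Ivd the window ends where the annotated gene begins, which leaves 210 bases instead of 250.
Bckdk, chr7:127903823-127904072, plus strand: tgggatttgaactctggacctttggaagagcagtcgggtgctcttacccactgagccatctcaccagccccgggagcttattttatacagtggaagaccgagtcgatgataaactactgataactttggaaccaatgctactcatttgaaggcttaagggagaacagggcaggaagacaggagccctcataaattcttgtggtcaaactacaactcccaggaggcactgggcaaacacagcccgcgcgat
Bckdhb, chr9:83924887-83925136, plus strand: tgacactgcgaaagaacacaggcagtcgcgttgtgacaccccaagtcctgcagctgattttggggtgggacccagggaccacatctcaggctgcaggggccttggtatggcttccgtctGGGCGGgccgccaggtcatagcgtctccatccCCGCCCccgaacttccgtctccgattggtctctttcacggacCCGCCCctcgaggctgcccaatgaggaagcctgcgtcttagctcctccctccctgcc
Ivd, chr2:118861744-118861953, plus strand: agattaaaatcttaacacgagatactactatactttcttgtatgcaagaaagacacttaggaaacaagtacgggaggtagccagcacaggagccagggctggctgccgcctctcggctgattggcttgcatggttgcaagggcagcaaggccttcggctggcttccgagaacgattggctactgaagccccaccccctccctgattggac
Mccc1, chr3:36000679-36000928, minus strand: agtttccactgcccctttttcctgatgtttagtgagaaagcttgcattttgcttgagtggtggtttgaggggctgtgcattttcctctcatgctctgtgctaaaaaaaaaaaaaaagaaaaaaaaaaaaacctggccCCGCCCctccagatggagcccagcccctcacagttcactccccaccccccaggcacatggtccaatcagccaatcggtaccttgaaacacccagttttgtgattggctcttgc

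RefSeq promoters were matched for 9 of the 10 genes. The GC box, bound by Sp-family factors, had 3 matches upstream of Bckdhb and 1 upstream of Mccc1, and none upstream of Bckdk or Ivd. Over the 250 bases it was found for 4 of the 9 genes (also Hibadh and Ppm1k), and for 32.7% of 32851 RefSeq promoters of the same length. Of the other motifs searched on both strands, GTAAACA of FOXO factors was found for Hibadh (3.17% of all promoters), CACGTG, the E-box, for Mccc2 (6.02%), and the NRF1 motif for Hibadh (3.74%). The letters AAGGTCA of oestrogen-related receptors (4.08%) and TGATGNAA of ATF4 (3.45%) were in none of the 9 windows. These matches only describe the letters present.

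With the 4 strata weighted equally, 10 mg/kg/day was set against 0, and 4 of the 10 transcripts passed the test. Bckdhb, an E1 subunit, rose by 36.7%. The kinase transcript Bckdk fell by 30.3%, Ivd by 22.4% and Mccc1 by 13.3%. Bcat2, Bckdha, Dbt, Ppm1k, Mccc2 and Hibadh did not pass, and their 95% intervals lay between -0.41 and 0.18 on the log2 scale. Calls were made with edgeR's quasi-likelihood test at a Benjamini-Hochberg adjusted p below 0.05 over all genes tested. In this comparison 47.5% of all genes passed, 25% as higher and 22.5% as lower, so that 4 of 10 is close to the background and is no result about the group. The median log2 fold change was -0.13 for the 10 genes and 0.04 for all genes tested. With unscaled library totals the median of the 10 turned to 0.09 and 4 of them were called higher and 2 lower, while over all genes 82.1% of the calls were higher.

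**Figure D1:**
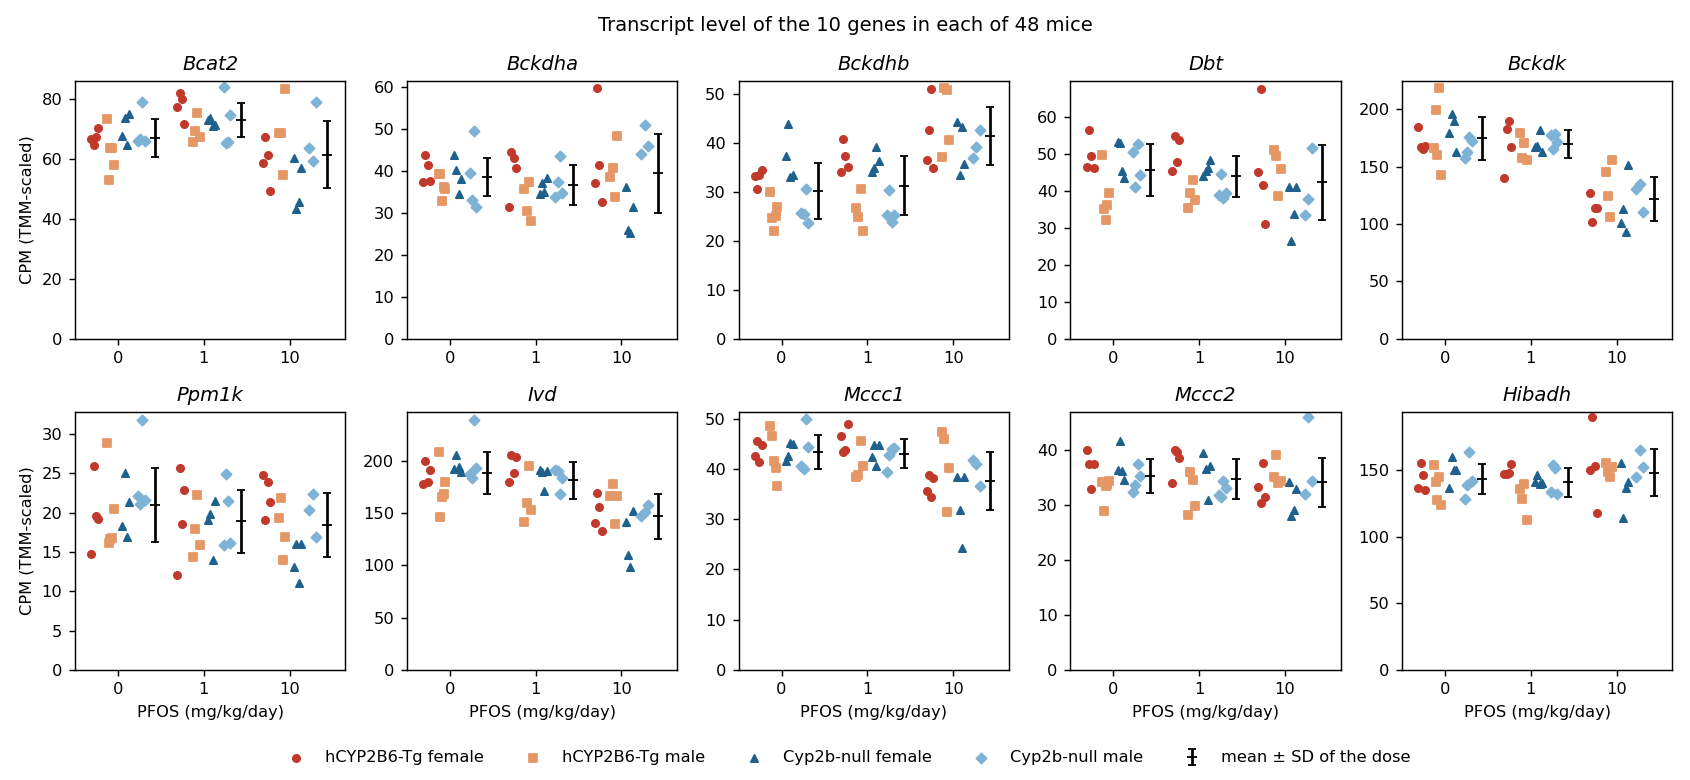
CPM on TMM-scaled library sizes (vertical axes, from 0) of each of the 10 genes in each of the 48 mice, by PFOS dose. Symbols mark the 4 strata and black bars give the mean ± SD of all mice at a dose, with 17, 16 and 15 mice at 0, 1 and 10 mg/kg/day. Most points of Bckdk and Ivd lie lower at 10 mg/kg/day than at 0 or 1, and those of Bckdhb higher, whereas the means of Hibadh and Mccc2 differ little.

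Bcat2 (ENSMUSG00000030826, chromosome 7, 45570153 to 45589711, GRCm38), the aminotransferase, averaged 67.0 ± 6.22 CPM at 0 (SD, n = 17), 73.0 ± 5.75 CPM at 1 (n = 16) and 61.4 ± 11.2 CPM at 10 mg/kg/day (n = 15). It did not pass at 10 against 0, with a log2 fold change of -0.13 ± 0.06 (SE; edgeR adjusted p = 0.0527). It passed in limma voom (-0.15, adjusted p = 0.0195) and without any 1 of 8 libraries (-0.17 to -0.14, adjusted p = 0.0125 to 0.0449), and was 0.0838 with unscaled totals. Those 8 were, at 10 mg/kg/day, replicate 2 of the hCYP2B6-Tg females, 4 of the hCYP2B6-Tg males, 1 and 4 of the Cyp2b-null females and 3 of the Cyp2b-null males, and, at 0, replicates 2 and 5 of the hCYP2B6-Tg males and 3 of the Cyp2b-null females. Against 1 mg/kg/day it passed, at -0.25 ± 0.06 (edgeR adjusted p = 0.00045). At 1 mg/kg/day it ran from 65.4 to 84.0 CPM (median 72.3) and at 10 from 43.3 to 83.4 CPM (median 60.5), so that the doses overlapped. That difference was -0.05 with unscaled library totals (adjusted p = 0.538). Among strata it passed in Cyp2b-null females alone. There Bcat2 had 60.5, 43.3, 45.7 and 56.9 CPM at 10 mg/kg/day, against 67.6, 73.6, 64.8 and 75.0 CPM at 0. The groups of Cyp2b-null females did not overlap, at a log2 fold change of -0.45 ± 0.11 (edgeR adjusted p = 0.00707; unscaled -0.15, adjusted p = 0.341). In hCYP2B6-Tg males it was 0.14 ± 0.11 (edgeR adjusted p = 0.361). An antisense gene, 0610005C13Rik, shares 15.9% of the exon bases of Bcat2, and since strand use in counting is not given, their reads cannot be told apart. That gene had 412 reads and Bcat2 46962.

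Bckdhb (ENSMUSG00000032263, chromosome 9, 83925145 to 84124240), the E1 beta subunit, was the member that rose. It averaged 41.4 ± 5.95 CPM at 10 mg/kg/day (n = 15) and 30.2 ± 5.69 CPM at 0 (SD, n = 17), with a log2 fold change of 0.45 ± 0.06 (edgeR adjusted p = 7.79e-08). In hCYP2B6-Tg males Bckdhb had 37.1, 51.2, 50.8 and 40.7 CPM at 10 mg/kg/day, against 29.9, 24.8, 21.96, 25 and 26.8 CPM at 0. Every treated hCYP2B6-Tg male was above every control, at a log2 fold change of 0.81 ± 0.11 (edgeR adjusted p = 8.02e-06). In Cyp2b-null males the values were 37.0, 39.1 and 42.7 CPM at 10 mg/kg/day, against 25.7, 25.5, 30.7 and 23.6 CPM at 0. These groups did not overlap either, at a log2 fold change of 0.59 ± 0.13 (edgeR adjusted p = 0.00135).

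In hCYP2B6-Tg females Bckdhb had 36.6, 42.6, 51.0 and 34.9 CPM at 10 mg/kg/day, against 33.2, 30.7, 33.5 and 34.4 CPM at 0. The 4 treated females were above the controls by a small margin, at 0.33 ± 0.12 (edgeR adjusted p = 0.0391), and this call was lost without any 1 of replicates 1, 2 and 3 at 0 or 2 and 3 at 10 mg/kg/day (0.21 to 0.33, adjusted p = 0.0628 to 0.234). It was also lost with adipocyte markers as a covariate (0.23, adjusted p = 0.134), with no filter (adjusted p = 0.107) and in limma voom (adjusted p = 0.129). In Cyp2b-null females the values were 44.3, 33.5, 43.2 and 35.6 CPM at 10 mg/kg/day, against 37.3, 43.9, 33.1 and 33.4 CPM at 0. Those groups overlapped and the difference of 0.08 ± 0.12 did not pass (edgeR adjusted p = 0.695).

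The other BCKDH subunits differed less between the doses. Bckdha (ENSMUSG00000060376, chromosome 7, 25629946 to 25658981), the E1 alpha subunit, averaged 39.3 ± 9.40 CPM at 10 mg/kg/day and 38.4 ± 4.53 CPM at 0, a log2 difference of 0.03 ± 0.07 (edgeR adjusted p = 0.771; 0.24 with unscaled totals, adjusted p = 0.00528). Its strata pointed both ways, at -0.40 ± 0.14 in Cyp2b-null females (edgeR adjusted p = 0.0585) and 0.29 ± 0.15 in Cyp2b-null males (edgeR adjusted p = 0.21). B3gnt8, a gene on the opposite strand, shares 61.7% of the exon bases of Bckdha. With 1678 reads assigned to B3gnt8 and 26769 to Bckdha, an exchange of reads between them cannot be told apart here. Dbt (ENSMUSG00000000340, chromosome 3, 116513070 to 116549981), the E2 core, averaged 42.4 ± 10.2 CPM at 10 mg/kg/day and 45.6 ± 6.98 CPM at 0, a log2 difference of -0.12 ± 0.08 (edgeR adjusted p = 0.192). In limma voom it was -0.18 (adjusted p = 0.0288), with replicate 2 of the hCYP2B6-Tg females at 10 left out -0.18 (adjusted p = 0.0266), and with unscaled totals 0.0922. It passed in Cyp2b-null females, where it had 41.0, 26.4, 33.7 and 41.2 CPM at 10 mg/kg/day, against 53.2, 53.0, 45.4 and 43.5 CPM at 0. The groups of Cyp2b-null females did not overlap, but the call (-0.45 ± 0.15, edgeR adjusted p = 0.0453) was lost without any 1 of replicates 1, 2 and 3 at 0 or 2 and 3 at 10 mg/kg/day (-0.49 to -0.34, adjusted p = 0.0619 to 0.161). It was also lost without the 6 libraries (-0.42, adjusted p = 0.141), with adipocyte markers as a covariate (-0.43, adjusted p = 0.131), with unscaled totals (-0.15, adjusted p = 0.496), with no filter (adjusted p = 0.0885) and with the replicate block (adjusted p = 0.0603).

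The kinase transcript Bckdk (ENSMUSG00000030802, chromosome 7, 127904082 to 127910221) had the largest fall of the 10. It averaged 121.6 ± 19.2 CPM at 10 mg/kg/day (n = 15) and 174.7 ± 18.4 CPM at 0 (SD, n = 17), a log2 fold change of -0.52 ± 0.06 (edgeR adjusted p = 5.82e-09). Of the 15 treated mice, 12 were below the lowest of the 17 controls. Bckdk passed in all 4 strata.

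Among hCYP2B6-Tg females Bckdk had 127.2, 101.4, 113.9 and 114.3 CPM at 10 mg/kg/day, against 184.3, 167.4, 165.6 and 167.7 CPM at 0. In Cyp2b-null females it had 101.2, 112.8, 93.0 and 151.5 CPM at 10 mg/kg/day, against 179.2, 196.3, 190.3 and 162.6 CPM at 0. Neither pair of female groups overlapped, with log2 fold changes of -0.58 ± 0.12 in hCYP2B6-Tg females (edgeR adjusted p = 0.000393) and -0.67 ± 0.12 in Cyp2b-null females (edgeR adjusted p = 0.000295). In Cyp2b-null males the values were 130.9, 135.0 and 110.7 CPM at 10 mg/kg/day, against 157.2, 162.9, 176.2 and 172.4 CPM at 0. In hCYP2B6-Tg males they were 145.8, 124.8, 106.0 and 156.1 CPM at 10 mg/kg/day, against 166.7, 199.1, 160, 218.5 and 143.1 CPM at 0. The Cyp2b-null males did not overlap (-0.41 ± 0.13, edgeR adjusted p = 0.0265), whereas the hCYP2B6-Tg males did (-0.41 ± 0.12, edgeR adjusted p = 0.0104). Both male calls were lost without the 6 libraries named above, at -0.29 in hCYP2B6-Tg males (adjusted p = 0.0974) and -0.30 in Cyp2b-null males (adjusted p = 0.172). They were also lost with adipocyte markers as a covariate, at -0.23 in hCYP2B6-Tg males (adjusted p = 0.192) and -0.31 in Cyp2b-null males (adjusted p = 0.0562). Unscaled totals ended the call in hCYP2B6-Tg males (-0.16, adjusted p = 0.128), and using no filter ended that in Cyp2b-null males (-0.42, adjusted p = 0.0521). Single libraries ended them too, in hCYP2B6-Tg males replicate 4 at 0 or 3 at 10 mg/kg/day (-0.33 and -0.32 without them) and in Cyp2b-null males replicates 3 or 4 at 0 or 1 or 3 at 10 mg/kg/day (-0.45 to -0.33, adjusted p = 0.0535 to 0.179).

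Ppm1k (ENSMUSG00000037826, chromosome 6, 57506502 to 57535468), the phosphatase that opposes Bckdk, averaged 18.5 ± 4.08 CPM at 10 mg/kg/day and 21.0 ± 4.67 CPM at 0. Its log2 fold change was -0.20 ± 0.10 (edgeR adjusted p = 0.111), and it passed in no stratum. In Cyp2b-null females all 4 treated mice, at 11.01 to 16.1 CPM, were below the controls at 16.9 to 25.1 CPM, with -0.54 ± 0.21 (edgeR adjusted p = 0.074). It varied most within groups of the 10 genes, with a pooled SD of 0.30 on the log2 scale.

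The ratio of 2 transcripts within a library does not depend on library scaling. The pairs below were chosen after the values had been seen, so their ratios are given as a description with no test. The log2 ratio of Bckdk to Bckdhb counts averaged 1.55 ± 0.36 at 10 mg/kg/day (SD, n = 15; lowest 1.06, median 1.71, highest 2.09) and 2.55 ± 0.28 at 0 (n = 17; lowest 2.16, median 2.48, highest 3.13). All 15 mice at 10 mg/kg/day were below all 17 at 0. The difference was -0.90 in hCYP2B6-Tg females, -1.21 in hCYP2B6-Tg males, -0.77 in Cyp2b-null females and -1.01 in Cyp2b-null males. At 1 mg/kg/day the ratio averaged 2.46 ± 0.28 (n = 16). The log2 ratio of Bckdk to Bckdha was 1.65 ± 0.36 at 10 mg/kg/day and 2.19 ± 0.21 at 0, with 11 of 15 treated mice below all controls. That of Bckdk to Ppm1k was 2.74 ± 0.31 at 10 mg/kg/day and 3.08 ± 0.38 at 0, with 4 of 15 below. The ratio of Bckdk to Bckdhb thus separated the doses fully, that to Bckdha in most mice and that to the phosphatase transcript in few. The first ratio joins the member that fell most to the member that rose, and Bckdk alone put 12 of 15 treated mice below all controls. How often other pairs of genes separate the doses was not computed.

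**Figure D2:**
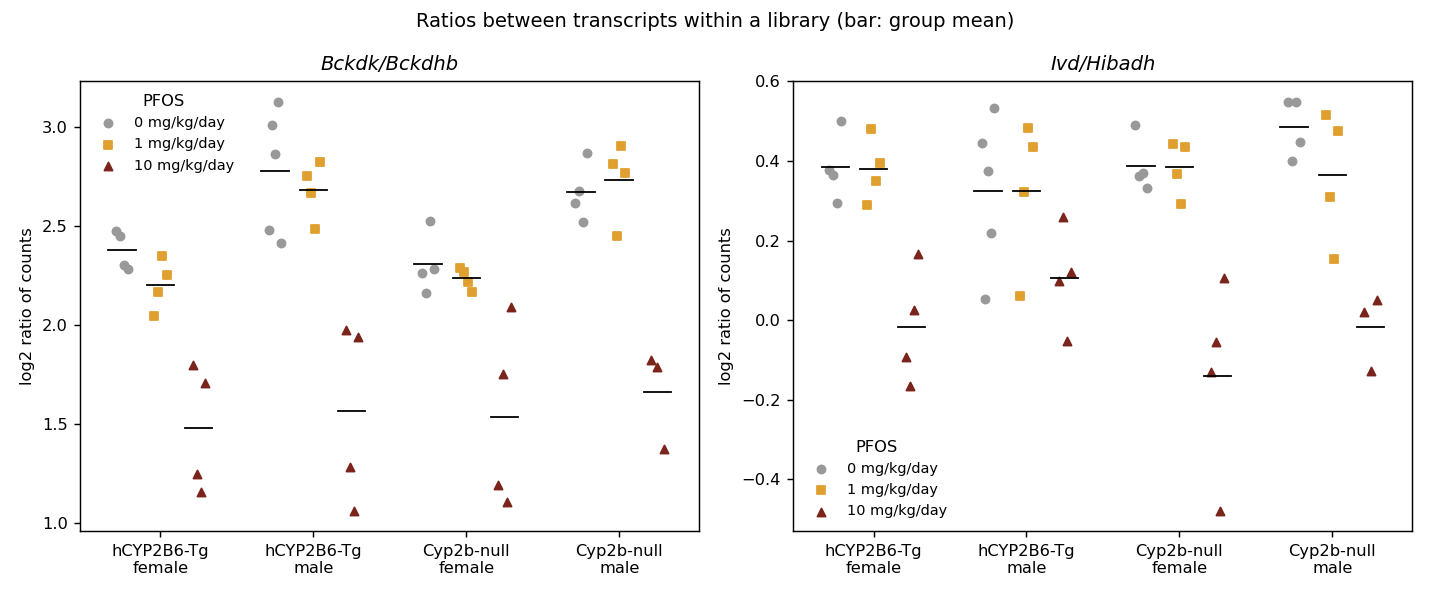
Log2 ratio of read counts of Bckdk to Bckdhb (left) and of Ivd to Hibadh (right) in each mouse, by stratum, with PFOS doses of 0, 1 and 10 mg/kg/day from left to right and bars at group means. All triangles (10 mg/kg/day) of the left panel, at 1.06 to 2.09, lie below all circles (0 mg/kg/day), at 2.16 to 3.13, and in the right panel 10 of 15 triangles lie below all circles.

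In the leucine branch, Ivd (ENSMUSG00000027332, chromosome 2, 118861954 to 118882909), isovaleryl-CoA dehydrogenase, averaged 147.1 ± 21.7 CPM at 10 mg/kg/day (n = 15) and 188.3 ± 20.2 CPM at 0 (SD, n = 17). Its log2 difference was -0.37 ± 0.06 (edgeR adjusted p = 1.05e-06), and 6 of 15 treated mice were below all controls. In Cyp2b-null females Ivd had 141.6, 109.5, 98.1 and 151.6 CPM at 10 mg/kg/day, against 191.8, 205.4, 193.9 and 189.4 CPM at 0. These groups were far apart, at -0.64 ± 0.11 (edgeR adjusted p = 0.00018). In hCYP2B6-Tg females it had 140.8, 169.2, 155.7 and 132.5 CPM at 10 mg/kg/day, against 177.9, 199.9, 179.7 and 191.1 CPM at 0 (-0.32 ± 0.11, edgeR adjusted p = 0.0259). In Cyp2b-null males it had 147.0, 151.3 and 157.8 CPM at 10 mg/kg/day, against 187.6, 183.5, 239.6 and 193.3 CPM at 0 (-0.40 ± 0.12, edgeR adjusted p = 0.0176). The groups did not overlap in either of these strata, although single libraries ended both calls. These were replicates 2 or 4 at 0 or 1 or 4 at 10 mg/kg/day in hCYP2B6-Tg females (-0.31 to -0.27 without them) and replicate 3 at 0 or 1 or 2 at 10 mg/kg/day in Cyp2b-null males (-0.40 to -0.31). The call in hCYP2B6-Tg females was also lost with unscaled totals (-0.15, adjusted p = 0.361), without the 6 libraries (-0.27, adjusted p = 0.104) and with no filter (-0.32, adjusted p = 0.0773), and that in Cyp2b-null males with unscaled totals (-0.26, adjusted p = 0.16). The groups overlapped in hCYP2B6-Tg males, where the log2 difference of -0.09 ± 0.11 did not pass (edgeR adjusted p = 0.568).

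Mccc1 (ENSMUSG00000027709, chromosome 3, 35959312 to 36000678), the biotin-carrying subunit of methylcrotonyl-CoA carboxylase, averaged 37.7 ± 5.77 CPM at 10 mg/kg/day (lowest 24.3, median 38.4, highest 47.3) and 43.4 ± 3.38 CPM at 0 (lowest 36.6, median 42.6, highest 50.1). The difference was -0.21 ± 0.05 in log2 units (edgeR adjusted p = 0.00193). This call was lost without the 6 libraries (-0.11, adjusted p = 0.0791) and with adipocyte markers as a covariate (-0.15, adjusted p = 0.0726), and with unscaled totals the value was 0.0073 (adjusted p = 0.916). In Cyp2b-null females Mccc1 had 38.4, 31.9, 24.3 and 38.5 CPM at 10 mg/kg/day, against 41.6, 42.6, 45.1 and 45.1 CPM at 0. The groups did not overlap (-0.39 ± 0.11, edgeR adjusted p = 0.0136), but the call was lost without the treated replicate 3, which is 1 of the 6 libraries (-0.27, adjusted p = 0.115). It was also lost without all 6 (-0.25, adjusted p = 0.102), with adipocyte markers as a covariate (-0.32, adjusted p = 0.0952) and with unscaled totals (-0.10, adjusted p = 0.473). The 4 treated hCYP2B6-Tg females, at 34.5 to 38.8 CPM, were also below the 4 controls at 41.3 to 45.6 CPM, but the difference of -0.24 ± 0.11 did not pass (edgeR adjusted p = 0.0914). Mccc2 (ENSMUSG00000021646, chromosome 13, 99948530 to 100015639), its partner subunit, had a log2 difference of -0.05 ± 0.05 (edgeR adjusted p = 0.447), at 34.0 ± 4.39 CPM at 10 mg/kg/day and 35.2 ± 3.02 CPM at 0. With unscaled totals the direction of Mccc2 turned and it passed (0.17, adjusted p = 0.0147).

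Hibadh (ENSMUSG00000029776, chromosome 6, 52546228 to 52640389), which oxidises hydroxyisobutyrate in the valine branch, averaged 148.1 ± 17.9 CPM at 10 mg/kg/day and 143.2 ± 11.4 CPM at 0. Its log2 difference of 0.05 ± 0.05 did not pass (edgeR adjusted p = 0.441), with a 95% interval of -0.05 to 0.15, and with unscaled totals it was 0.27 (adjusted p = 8.52e-05). The means of the 12 groups spanned 0.26 on the log2 scale, the narrowest span of the 10 genes. The log2 ratio of Ivd to Hibadh was -0.02 ± 0.18 at 10 mg/kg/day and 0.39 ± 0.13 at 0, and 10 of 15 treated mice were below all controls.

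By stratum, 3 of 10 transcripts passed in hCYP2B6-Tg females (background 27.7% of all genes), 2 in hCYP2B6-Tg males (18.5%), 5 in Cyp2b-null females (12.7%) and 3 in Cyp2b-null males (15.8%). With single libraries left out the count was 1 to 2 in hCYP2B6-Tg females (1 without replicate 2 at 0), 1 to 2 in hCYP2B6-Tg males (1 without replicate 4 at 0 or 3 at 10), 3 to 6 in Cyp2b-null females (3 without replicate 3 at 10) and 1 to 3 in Cyp2b-null males (1 without replicate 3 at 0 or 1 at 10). The calls over all genes moved too, at 2796 to 4734 in hCYP2B6-Tg females and 1540 to 3482 in hCYP2B6-Tg males. They were 859 to 2878 in Cyp2b-null females and 1373 to 2152 in Cyp2b-null males. Over all strata, no gene of the 10 had groups at 10 and 0 mg/kg/day that did not overlap (background 1.01%). The 5 in Cyp2b-null females (Bcat2, Dbt, Bckdk, Ivd and Mccc1) were all lower (6.87% of all genes were called lower there), and the median of the 10 genes there was -0.42 on the log2 scale, against 0.03 for all genes. In hCYP2B6-Tg males the median of the 10 was 0.12, against 0.02. Groups at 10 and 0 mg/kg/day did not overlap for 4 of the 10 genes in hCYP2B6-Tg females (background 23.2%), 1 in hCYP2B6-Tg males (13%), 7 in Cyp2b-null females (14.3%) and 3 in Cyp2b-null males (28.2%).

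**Figure D3:**
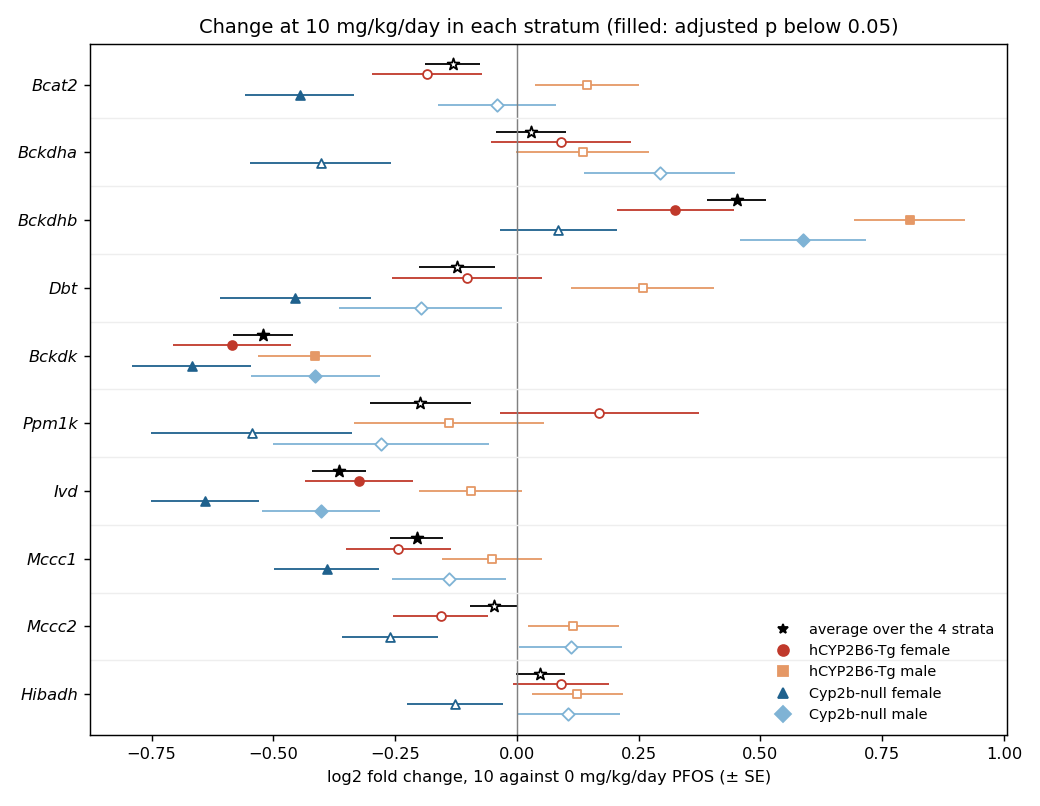
Log2 fold change of each of the 10 genes at 10 against 0 mg/kg/day PFOS (horizontal axis, bars ± SE), averaged over strata (star) and in each stratum. Filled symbols passed at an edgeR adjusted p below 0.05. Bckdk is filled in all 4 strata, Bckdhb in all but Cyp2b-null females, and of the 4 strata Cyp2b-null females have the lowest value for all 10 genes.

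At 1 against 0 mg/kg/day none of the 10 transcripts passed in edgeR, nor did any gene (0% of 15583). At an unadjusted p below 0.05 there were 578 genes, among them Bcat2 (0.12 ± 0.06). DESeq2 called 1 gene and limma voom 0, and neither called any of the 10. The 95% intervals of the 10 genes at this dose lay between -0.36 and 0.23 on the log2 scale. At 10 against 1 mg/kg/day 5 of 10 passed (background 46.9%), namely Bckdhb (0.42 ± 0.06), Bckdk (-0.48 ± 0.06), Ivd (-0.30 ± 0.06), Mccc1 (-0.19 ± 0.06) and Bcat2. The call of Ivd was lost with unscaled totals (-0.10, adjusted p = 0.14), and that of Mccc1 without the 6 libraries (-0.10, adjusted p = 0.0939) and with the adipocyte covariate (-0.15, adjusted p = 0.0628). This comparison and that of 10 against 0 share the treated mice. Within strata none of the 10 passed at 1 against 0 either (background 0% in 3 strata and 0.0128% in hCYP2B6-Tg males). At 1 mg/kg/day Bckdk ran from 140.6 to 190.3 CPM (median 169.4), Bckdhb from 22.1 to 40.8 CPM (median 32.3), Ivd from 141.8 to 205.4 CPM (median 189.0) and Mccc1 from 38.4 to 49.0 CPM (median 43.6), and these ranges overlapped those at 0.

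The sexes differed in Bckdhb without PFOS. At 0 mg/kg/day females had 34.9 ± 4.05 CPM (n = 8) and males 26.0 ± 2.81 CPM (SD, n = 9), a log2 difference of 0.42 ± 0.08 (edgeR adjusted p = 0.000802). It was the 1 gene of the 10 to pass (background 7.59%). The females ran from 30.7 to 43.9 CPM (median 33.5) and the males from 21.96 to 30.7 CPM (median 25.5), so that the ranges just touched. At 10 mg/kg/day females had 40.2 ± 6.05 CPM (n = 8) and males 42.7 ± 6.02 CPM (n = 7). The effect of 10 mg/kg/day on Bckdhb, female minus male, was -0.49 ± 0.12 in log2 units, which did not pass in edgeR (adjusted p = 0.0897) but passed in DESeq2 (0.0295) and limma voom (0.0285). No member passed this test of a difference between the sexes in edgeR (background 0.128%), while 6 had an unadjusted p below 0.05, as did 1490 of all genes (9.56%). These 6 (Bcat2, Bckdha, Bckdhb, Ivd, Mccc1 and Mccc2) had the lower effect in females. DESeq2 called Bckdhb among 92 genes in all, and limma voom called Bckdha and Bckdhb among 187, where edgeR called 20 genes.

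Between the genotypes, the effect of 10 mg/kg/day on the 10 transcripts did not pass in any tool, and edgeR called no gene at all (0%), with 1378 genes (8.84%) at an unadjusted p below 0.05 (DESeq2 called 3 and limma voom 0 genes). Among the 10, Dbt (0.40 ± 0.16), Ppm1k (0.43 ± 0.21) and Ivd (0.31 ± 0.11) had an unadjusted p below 0.05, each with the higher value in hCYP2B6-Tg (edgeR adjusted p = 0.464, 0.557 and 0.448). At 0 mg/kg/day none of the 10 passed between hCYP2B6-Tg and Cyp2b-null (background 0%), with none at an unadjusted p below 0.05 and log2 differences of -0.16 to -0.0012. Over all genes edgeR had 535 at an unadjusted p below 0.05 there, while DESeq2 called 9 and limma voom 5.

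Levels of different genes can be set side by side per length. Per kilobase of the deposited gene length, Bckdk averaged 32.9 CPM at 10 mg/kg/day and 47.3 CPM at 0. The E1 subunit Bckdhb averaged 22.9 CPM per kilobase at 10 mg/kg/day and 16.7 at 0, and Bckdha 20.7 at 10 mg/kg/day and 20.2 at 0. The core Dbt averaged 12.7 CPM per kilobase at 10 mg/kg/day and 13.6 at 0, and the phosphatase Ppm1k 3.07 at 10 mg/kg/day and 3.48 at 0. Dld, the shared E3 component, stood above them all with 54.2 CPM per kilobase at 10 mg/kg/day and 76.0 at 0. At 0 the order of the complex and its regulators was thus Dld, Bckdk, Bckdha, Bckdhb, Dbt and Ppm1k, and at 10 mg/kg/day Bckdhb stood before Bckdha. On the length of the main transcript Bckdhb stood before Bckdha at both doses, with 28.1 against 20.7 CPM per kilobase at 10 mg/kg/day and 20.5 against 20.2 at 0, so that the change of order depends on the length used. The level of Bckdha is also limited by B3gnt8, which shares 61.7% of its exon bases, since strand use in counting is not given. On the deposited length the ranges of mice overlapped between the neighbours Bckdha and Bckdhb at both doses (13.2 to 31.4 and 18.6 to 28.4 at 10 mg/kg/day, 16.5 to 26.0 and 12.2 to 24.3 at 0). Those of Dbt overlapped its upper neighbour at both doses, and Bckdk overlapped Bckdhb at 10 mg/kg/day. The enzymes outside the complex had 26.7 CPM per kilobase at 10 mg/kg/day and 34.2 at 0 for Ivd, 15.7 and 17.2 at these doses for Bcat2, and 12.1 and 12.6 for Mccc2. The deposited length joins all annotated exons and exceeds the main transcript most for Mccc1 (10952 against 2455 bases) and Hibadh (10179 against 1825 bases). On the length of the main transcript Bcat2 averaged 34.6 CPM per kilobase at 10 mg/kg/day and 37.8 at 0, above both E1 subunits, where on the deposited length it stood below Bckdha at both doses. Mccc1 averaged 15.3 CPM per kilobase at 10 mg/kg/day and 17.7 at 0, and Hibadh 81.2 at 10 mg/kg/day and 78.5 at 0.

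The genes whose 12 group means were most like those of Bckdk, by the root mean square difference of centred log2 CPM among 7722 candidates, were Pfkm (0.05), which encodes muscle phosphofructokinase, Mipep (0.05), the mitochondrial intermediate peptidase, and Idh3g (0.05), a subunit of isocitrate dehydrogenase. The median candidate differed by 0.29. For Ivd they were Pccb (0.07), Hadha (0.08) and Mfn1 (0.08). For Mccc1 they were Pabpc4, Rhot1 and Mpst (0.05 each). For Bckdhb, where the distances were larger, they were Abcb1a (0.09), Sema3g (0.10) and Abra (0.10). The nearest member to Bckdhb, Hibadh, differed by 0.24.

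Further enzymes of BCAA breakdown were read from a list of 21 genes, of which 20 were tested and Bcat1, the cytosolic aminotransferase, was not. At 10 against 0 mg/kg/day 14 of the 20 fell and 3 rose, with a median of -0.22 on the log2 scale (7 fell, 4 rose and the median was -0.01 with unscaled totals). The background over all genes tested was 22.5% lower and 25% higher. Dld fell in every stratum, to 199.5 ± 15.2 CPM at 10 mg/kg/day against 280.0 ± 31.4 CPM at 0 (-0.49 ± 0.05, edgeR adjusted p = 7.34e-10). Oxct1, which activates ketone bodies and is listed for the end products of leucine, had the largest fall, to 194.0 ± 45.8 CPM at 10 mg/kg/day against 400.7 ± 77.2 CPM at 0 (-1.07 ± 0.09, edgeR adjusted p = 6.47e-12). In the valine branch Acad8 fell (-0.42 ± 0.04), Hibch fell (-0.21 ± 0.06) and Aldh6a1 rose (0.27 ± 0.05). Acadsb, of the isoleucine branch, rose (0.27 ± 0.04), as did Echs1 (0.30 ± 0.08), a hydratase shared with fatty acid oxidation. The propionyl-CoA carboxylase subunits Pcca (-0.20 ± 0.05) and Pccb (-0.34 ± 0.04) and the cobalamin enzymes Mmaa (-0.37 ± 0.07) and Mmab (-0.48 ± 0.07) fell. Without the 6 libraries 11 fell and 3 rose, and with adipocyte markers as a covariate 11 fell and 2 rose. Over all genes 3511 were called lower and 3892 higher in the main run. Those counts were 2837 and 3312 without the 6 libraries, 2595 and 2755 with the covariate, and 1642 and 7520 with unscaled totals.

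A second list of 17 genes held amino acid transporters, enzymes that pass on the amino group, regulators, and Nnmt, which is none of these. Of these 9 rose (background 25%) and 5 fell (22.5%), with a median of 0.32 (11 rose and 1 fell with unscaled totals). Slc25a44, the mitochondrial BCAA carrier, rose to 46.6 ± 7.52 CPM at 10 mg/kg/day against 37.5 ± 3.13 CPM at 0 (0.32 ± 0.06, edgeR adjusted p = 4.66e-05). At the plasma membrane Slc7a5 (0.93 ± 0.19), its partner Slc3a2 (0.32 ± 0.07), Slc7a8 (0.45 ± 0.18) and Slc43a1 (0.57 ± 0.16) rose. Klf15, a transcription factor known in mouse muscle for inducing BCAA enzymes, rose to 87.8 ± 38.6 CPM at 10 mg/kg/day against 49.9 ± 12.9 CPM at 0 (0.77 ± 0.13, edgeR adjusted p = 4.37e-06). It passed in 3 strata, and in Cyp2b-null females its log2 difference was -0.12 ± 0.26 (edgeR adjusted p = 0.806). Glul, glutamine synthetase, rose to 665.9 ± 395 CPM at 10 mg/kg/day against 224.4 ± 74.0 CPM at 0 (1.51 ± 0.18, edgeR adjusted p = 4.43e-09). The transaminases Got1 (-0.35 ± 0.11), Got2 (-0.42 ± 0.07) and Gpt (-0.39 ± 0.11), glutamate dehydrogenase Glud1 (-0.23 ± 0.05) and the coactivator Ppargc1a (-0.42 ± 0.10) fell. Nnmt, which methylates nicotinamide and is abundant in fat, also rose (1.73 ± 0.36), and the markers that define adipocytes rose with this list. With the mean of the full list of 19 adipocyte markers as a covariate 7 of the 17 rose and 4 fell. Over all genes 2755 were then called higher and 2595 lower, against 3892 and 3511 in the main run.

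**Figure D4:**
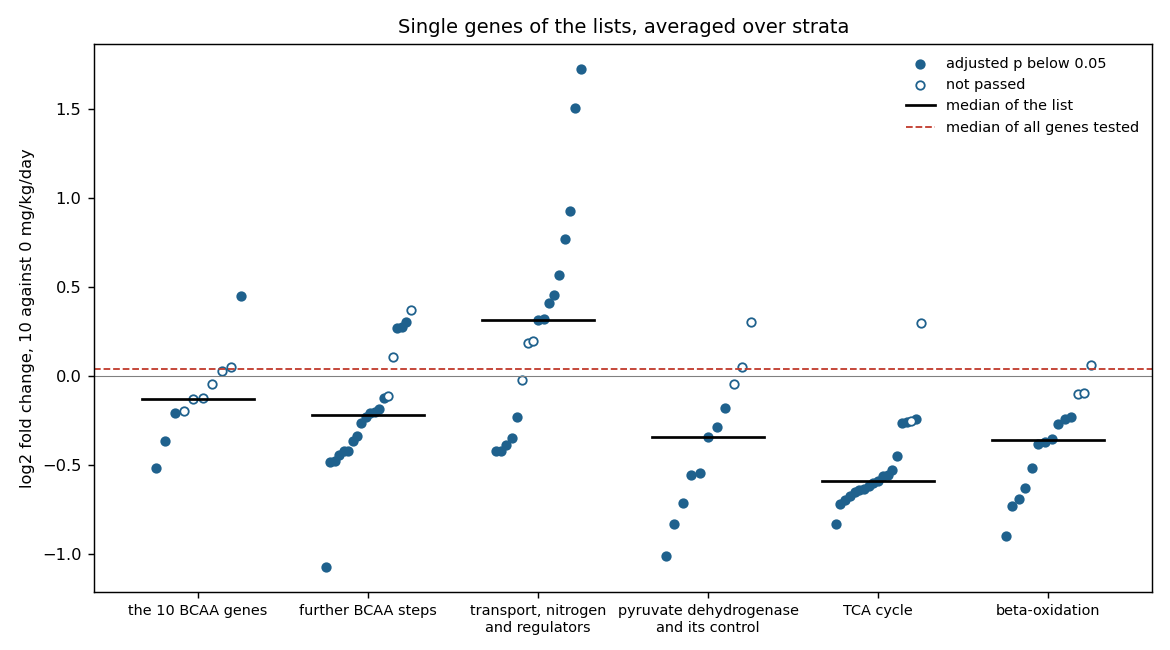
Log2 fold change (average of the strata, 10 against 0 mg/kg/day PFOS) of each gene in 6 lists (points ordered by value within a list). Filled points passed at an edgeR adjusted p below 0.05, black lines are list medians and the dashed line is the median of all genes tested, 0.04. TCA cycle genes have the lowest median, -0.59, and the list of transport, nitrogen and regulators, which also holds Nnmt, the highest, 0.32.

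Pyruvate dehydrogenase, built like BCKDH and sharing Dld, and its own kinases and phosphatases were read beside it. Of 11 genes 8 fell (background 22.5%) and none rose (25%), with a median of -0.34 (5 fell and 1 rose with unscaled totals). Without the 6 libraries 5 of the 11 fell, and with adipocyte markers as a covariate 4 fell. Over all genes tested 2837 were called lower without the 6 libraries and 2595 with the covariate, against 3511 in the main run. The subunits of the complex all fell, namely Pdha1 (-0.55 ± 0.06), Pdhb (-0.56 ± 0.06), Dlat (-0.83 ± 0.07) and Pdhx (-0.71 ± 0.05). The kinase transcript Pdk4 fell (-1.01 ± 0.35, edgeR adjusted p = 0.0145) with a wide spread, at 29.0 to 5759 CPM (median 336.5) at 10 mg/kg/day and 230.6 to 2081 CPM (median 1126) at 0. Its strata ran from -3.60 ± 0.75 in Cyp2b-null females (edgeR adjusted p = 0.00117) to 1.20 ± 0.68 in hCYP2B6-Tg females (edgeR adjusted p = 0.198), and it passed in Cyp2b-null females alone. Pdk2 did not pass (0.05 ± 0.06). Set beside these values, the E1 beta transcript of BCKDH rose (Bckdhb, 0.45) where that of pyruvate dehydrogenase fell (Pdhb, -0.56). Of 19 TCA cycle genes 17 fell and none rose (median -0.59), and of 14 beta-oxidation genes 11 fell and none rose (median -0.36), beside the same background. With unscaled totals 14 TCA cycle genes fell, and 5 beta-oxidation genes fell while 1 rose. A list of 5 genes held enzymes that carry biotin, as Mccc1 does, or handle it. Of these Acaca (1.78 ± 0.26) and Acacb (0.39 ± 0.09), which make malonyl-CoA, rose. The pyruvate carboxylase gene Pcx fell (-0.36 ± 0.14), and Btd (0.03 ± 0.09) and Hlcs (-0.16 ± 0.08) did not pass.

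The average values for Bckdk, Bckdhb and Ivd at 10 against 0 were also taken with the marker measures in view. Without the 6 libraries they were -0.45, 0.44 and -0.30, and with adipocyte markers as a covariate -0.38, 0.33 and -0.34, and each passed in both. The part of the fast fibre, slow fibre, fibroblast, macrophage and mitochondrially encoded transcripts in these results was not tested.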

How the data were processed

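Raw counts of reads for 54532 genes in 48 libraries were deposited by the authors, beside symbols, coordinates and a gene length. The submitters' processing notes name HISAT2 and GRCm39. No source used here names the counting program or its use of strand. The table's coordinates of the 10 genes are those of GENCODE vM21 (GRCm38), so GRCm38 is given. The deposited gene length (unit other) equals the joined exon length there for all 10.

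Counts were filtered with filterByExpr, scaled with TMM and fitted with edgeR 4.0.16 in R 4.3.3 (glmQLFit, 1 coefficient per group, all 48 libraries, 36 residual degrees of freedom). Each of 15 contrasts was tested with glmQLFTest, two-sided, with Benjamini-Hochberg adjustment over 15583 genes and a threshold of 0.05. Standard errors were derived from the log2 fold change and its F statistic. CPM levels were computed from those counts. The p-values rest on the spread between mice within groups, estimated for each gene over all 12 groups together. The p-value of a stratum thus does not measure the spread of that stratum alone. The counts of 73 pairs of libraries within groups differed by more than sampling noise (lowest chi-square per degree of freedom 7.84). At 10 mg/kg/day this value reached 119.8 in Cyp2b-null females and 114.5 in hCYP2B6-Tg females, and the lowest, in Cyp2b-null males, was also at 10. At 0 it reached 50.55. The pooled spread can therefore be too small for some treated groups. Upstream sequences came from the RefSeq promoter table for GRCm38.

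Alternatives were DESeq2 size factors, library totals without scaling factors, totals without mitochondrially encoded and the 20 most abundant genes, no filter, a stricter filter (16 libraries with a CPM of 1 or more), the replicate number as a block, leaving out 6 libraries, adipocyte markers as a covariate, DESeq2 1.42.0, limma 3.58.1 voom with sample weights, and leaving out each library in turn. The adipocyte covariate was the mean log2 CPM of the full list of 19 adipocyte markers. That list includes genes abundant in every library, such as Car3 with at least 16652 reads. The 10 genes, the lists and the tests were chosen with earlier results of these data known. All 10 genes are described in every contrast, with single mice where a gene passed. From each list the counts and median are given, and up to 6 genes by smallest p (any gene of the BCAA and pyruvate dehydrogenase lists). Likeness to other genes was read for genes with an average log2 CPM of at least 3. Table symbols Mut and Pcx stand for Mmut and Pc.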

Additional observations from a re-analysis of the deposited data

Results flagged for a closer look

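Single mice were compared with the rest of their group, gene by gene, in 110 groups of 4 or 5 mice, and 7 held a mouse set apart from the others by Dixon's test, and chance gives about 1 in 20. In Cyp2b-null males at 0 mg/kg/day replicate 3 was highest for Bcat2 (78.9 CPM, the others 65.9 to 66.6) and for Ppm1k (31.8 CPM, the others 21.1 to 22.1). This library also had the highest sum of slow fibre markers of all libraries, 6613 CPM. In hCYP2B6-Tg females at 0 replicate 1 was highest for Bckdk (184.3 CPM, the others 165.6 to 167.7). In hCYP2B6-Tg males at 0 replicate 2 was lowest for Mccc2 (28.8 CPM, the others 33.5 to 34.2). In Cyp2b-null females at 1 mg/kg/day replicate 3 was lowest for Ivd (171.2 CPM, the others 189.3 to 191.4) and replicate 2 highest for Hibadh (146.7 CPM, the others 139.9 to 140.8). In hCYP2B6-Tg females at 1 replicate 4 was highest for Hibadh (154.7 CPM, the others 147.0 to 148.0).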

How the results depend on the processing

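For the average effect of 10 against 0 mg/kg/day, Bckdk (-0.54 to -0.31), Bckdhb (0.33 to 0.68) and Ivd (-0.38 to -0.15) passed under all 10 alternatives and without any single library. Unscaled library totals moved the median of all genes by 0.22, called 9162 genes with 82.1% of them higher, and reversed Bcat2 (0.0838), Dbt (0.0922), Ppm1k (0.0102), Mccc1 (0.0073) and Mccc2 (0.17, adjusted p = 0.0147). At 10 against 1 they reversed Dbt (0.15), Ppm1k (0.15), Mccc1 (0.003) and Mccc2 (0.19). There the values without the 6 libraries were 0.0646 for Ppm1k and 0.0175 for Mccc2, and with the adipocyte covariate 0.0291 for Ppm1k. Without single libraries Bckdha at 10 against 0 ran from -0.0219 to 0.0655, below 0 without hCYP2B6-Tg female replicate 2, Cyp2b-null female replicate 1 or hCYP2B6-Tg male replicate 4 at 10. Mccc2 at 10 against 1 ran from -0.0616 to 0.007, above 0 without Cyp2b-null male replicate 1 at 10.

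Counts of the 10 genes that passed moved by over 1.5 times as follows. In hCYP2B6-Tg females it was 1 with no filter. In hCYP2B6-Tg males it was 6 with unscaled totals, 1 without the 6 libraries and 1 with the adipocyte covariate. In Cyp2b-null females it was 3 under each of these. For the difference between the sexes it was 1 with the covariate, 1 in DESeq2 (92 genes called in all) and 2 in limma voom (187 genes). In edgeR 20 genes were called there. For females against males at 0 it was 2 in voom (2797 genes in all, against 1182 in edgeR). The calls over all genes moved as well. Averaged over strata at 10 against 0 they were 7403 in the main run and 9162 with unscaled totals. Without the 6 libraries they were 6149, and with the covariate 5350. The causes were not tested. Without single libraries the count was 4 to 6 at 10 against 0 averaged over strata, 1 to 2 in hCYP2B6-Tg females (1 without replicate 2 at 0) and 1 to 2 in hCYP2B6-Tg males (1 without replicate 4 at 0 or 3 at 10). It was 3 to 6 in Cyp2b-null females (3 without replicate 3 at 10) and 1 to 3 in Cyp2b-null males (1 without replicate 3 at 0 or 1 at 10). It was 0 to 1 for the difference between the sexes (1 without hCYP2B6-Tg female replicates 2 or 3 or male replicate 1 at 10, or Cyp2b-null male replicate 3 at 0).

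Same-numbered mice did not deviate together (2 of 15 pairs of mice, at 10 and 0 in a stratum, correlated above 0.1), so the numbers were not taken to pair mice. With the replicate block 4 of the 10 passed at 10 against 0 averaged over strata and 7369 genes in all, and Dbt in Cyp2b-null females (-0.45, adjusted p = 0.0603) lost its call. Depth limits Ppm1k most, with 165 to 499 reads per library.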
